A study of Mus musculus with 32 samples.

Results

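The epidermal differentiation complex is a block of neighbouring genes that encode the structural proteins of the outer epidermis. Of 19974 gene names in the 32 libraries, 43 were members by name: 21 late cornified envelope genes (Lce), 15 small proline-rich genes (Sprr), 4 filaggrin-type genes (Flg2, Hrnr, Rptn and Crnn), and Lor, Ivl and Crct1. Flg itself was not analysed here. All 43 lie on chromosome 3 between 92080271 and 93399442 (GENCODE M21 on GRCm38, the assembly also called mm10), a stretch of 1.32 Mb, and 42 are annotated as protein-coding.

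In the upper epidermis, keratinocytes leave the basal layer, stop dividing and build a cornified envelope, a shell of crosslinked protein under the plasma membrane. Involucrin (Ivl) forms an early scaffold, loricrin (Lor) is the main filler, and the small proline-rich and late cornified envelope proteins are crosslinked into it by transglutaminases. The filaggrin-type proteins are fused S100 proteins, of which filaggrin itself fills keratohyalin granules and bundles keratin filaments. Genes of the Sprr family, Sprr1a and Sprr1b above all, are also known to be switched on when skin is wounded or stressed.

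The libraries came from skin of Bl/6 mice and were made by CEL-seq2, which counts the 3' ends of transcripts. The tissue groups were interfollicular epidermis cells sorted as Itga6+Sca1+ (3 libraries), anagen hair follicles (3) and a mixture of anagen and telogen follicles (3). The organoids, epidermal cells grown in 3 dimensions, were collected 7 d after culture or the last passage. Unpassaged organoids had 1 library in each of 5 media: forskolin, forskolin with Fgf10, forskolin with Fgf1, forskolin with the TgfB inhibitor, and the inhibitor alone. Early organoids (within 3 months, passages 7 to 12) had forskolin with Fgf10 (4 libraries), forskolin with Fgf1 (2), forskolin with the inhibitor (4) or the inhibitor alone (2). Late organoids (within 6 months, passages 23 to 30) had forskolin with Fgf1 (6 libraries). Forskolin raises cyclic AMP, Fgf1 and Fgf10 are fibroblast growth factors, and the inhibitor blocks TGF-beta signalling. Whether replicates are different mice or different cultures is not in the labels. The p-values below therefore refer to the scatter of these libraries alone, part of which may be technical. The epidermis sort takes basal cells, which carry Itga6, so the sort and culture cannot be told apart wherever organoids are set against epidermis.

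Library totals ran from 412582 to 3351435 counts. Basal keratinocyte markers (6 genes, Krt5 and Krt14 among them) summed to 15736 CPM (counts per 1000000 of the library total) or more in every organoid and epidermis library. Hair and inner root sheath markers (5 genes) summed to 36527 to 48271 CPM in anagen follicles and 8309 to 19936 in mixed follicles. In organoids and epidermis these sums were 35.9 CPM or less. Libraries whose files list exactly the same gene names are taken to come from 1 source table, and there were 11 such tables. No source table held libraries of more than 1 tissue group, both tissue and organoid libraries, or both early and late organoids, so table and group cannot be told apart in those comparisons.

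The Lce promoters held the AP-1 motif and TATAAA less often than those of the other members, and a few promoters are shown to make that visible. RefSeq promoters of GRCm38.p6 were matched by symbol for 39 of the 43 genes, and the 250 bases before each start were searched on both strands. The AP-1 motif TGANTCA was found in 9 of 13 Sprr promoters (69.23%), in 0 of 20 Lce promoters, in 3 of 4 filaggrin-type promoters (Crnn, Flg2 and Rptn) and in those of Lor and Ivl. Of 32851 promoters in all, 6.749% held it. TATAAA was found in 10 of 13 Sprr, 3 of 4 filaggrin-type and 4 of 20 Lce promoters and in those of Lor and Ivl, against 12.37% of all. Lce was not lower than Sprr in the other motifs searched. The antioxidant response element core TGACNNNGC was in 5 of 20 Lce, 2 of 13 Sprr and 0 of 4 filaggrin-type promoters (10.16% of all). The Grainyhead motif AACNNGTT was in 0 of 20 Lce, 0 of 13 Sprr and 1 of 4 filaggrin-type promoters (3.641% of all). The sequences below run 5′ to 3′ up to the base before the start, and capitals mark matches to the AP-1 motif or TATAAA. Sprr1a, Sprr1b and Lor are shown as marker genes of the complex, Sprr2d as an Sprr2 gene with high counts in organoids, and Lce3e and Lce1a1 as one Lce gene of each large subfamily.
Sprr1a, chr3:92485882-92486131, minus strand: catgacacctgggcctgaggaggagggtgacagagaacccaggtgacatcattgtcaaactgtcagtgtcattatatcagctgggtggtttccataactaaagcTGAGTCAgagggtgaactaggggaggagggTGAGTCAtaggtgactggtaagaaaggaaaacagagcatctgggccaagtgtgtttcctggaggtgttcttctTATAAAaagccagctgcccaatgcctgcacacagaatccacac
Sprr1b, chr3:92438780-92439029, minus strand: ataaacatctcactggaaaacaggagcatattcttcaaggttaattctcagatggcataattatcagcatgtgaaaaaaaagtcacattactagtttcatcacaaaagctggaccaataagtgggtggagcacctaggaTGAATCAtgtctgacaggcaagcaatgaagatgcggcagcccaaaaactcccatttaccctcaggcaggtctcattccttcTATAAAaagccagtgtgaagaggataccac
Sprr2d, chr3:92338890-92339139, plus strand: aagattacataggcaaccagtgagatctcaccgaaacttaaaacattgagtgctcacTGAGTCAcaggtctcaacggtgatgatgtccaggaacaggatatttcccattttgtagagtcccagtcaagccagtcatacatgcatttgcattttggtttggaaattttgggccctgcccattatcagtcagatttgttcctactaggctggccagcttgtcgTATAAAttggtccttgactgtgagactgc
Lor, chr3:92083143-92083392, minus strand: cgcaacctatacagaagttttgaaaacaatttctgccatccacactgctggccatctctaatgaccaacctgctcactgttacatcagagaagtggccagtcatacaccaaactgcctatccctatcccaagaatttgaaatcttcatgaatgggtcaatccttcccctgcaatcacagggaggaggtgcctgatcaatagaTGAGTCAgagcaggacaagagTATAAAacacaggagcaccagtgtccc
Lce3e, chr3:92966811-92967060, plus strand: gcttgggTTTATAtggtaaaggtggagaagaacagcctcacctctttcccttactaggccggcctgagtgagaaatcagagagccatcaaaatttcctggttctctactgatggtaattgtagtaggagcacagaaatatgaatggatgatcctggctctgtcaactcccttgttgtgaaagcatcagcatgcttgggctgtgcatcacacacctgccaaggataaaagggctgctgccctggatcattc
Lce1a1, chr3:92648308-92648557, minus strand: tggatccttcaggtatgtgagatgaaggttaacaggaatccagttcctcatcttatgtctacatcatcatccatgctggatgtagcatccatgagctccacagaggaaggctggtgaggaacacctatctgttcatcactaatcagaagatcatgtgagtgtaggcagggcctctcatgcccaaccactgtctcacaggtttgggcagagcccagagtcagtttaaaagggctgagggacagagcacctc
Sprr1a carried 2 AP-1 matches, which begin 146 and 116 bases before the start, and Sprr1b carried 1, at 111 bases. The Sprr2d match lay at 193 bases, and those of Sprr2b, Sprr2e, Sprr2f, Sprr2h and Sprr2i lay 193 to 198 bases before theirs. In Lce3e the only capitals are a TATAAA on the other strand, 243 bases before the start, and Lce1a1 had none. A match is a description of letters and not a bound site, and its absence covers only this window.

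The 3 families had different maps over tissue and culture. In sorted epidermis all were low, with summed levels of 20.0 ± 3.61 CPM for Lce, 24.5 ± 24.0 for Sprr and 33.6 ± 10.4 for filaggrin-type genes (mean ± SD, n = 3). Anagen follicles had a high Sprr sum, 8051 ± 1644 CPM, beside an Lce sum of 27.3 ± 22.6 CPM (n = 3). Nearly all of that Sprr sum was Sprr1a, and without this gene it was 12.2 CPM in anagen, 183 CPM in mixed follicles and 14.4 CPM in epidermis. The Lce sum in mixed follicles was 171 ± 59.8 CPM (n = 3). Both families were high in early organoids with forskolin and Fgf10, at 8708 ± 1624 CPM for Lce and 34009.9 ± 14841 CPM for Sprr (n = 4). Across the 12 early libraries the Lce sum ran from 1091 to 20457 CPM and the Sprr sum from 9484 to 59653 CPM. Every early library therefore lay above the 3 epidermis libraries in both sums, whose highest values were 23.4 and 51.8 CPM.

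**Figure D1:**
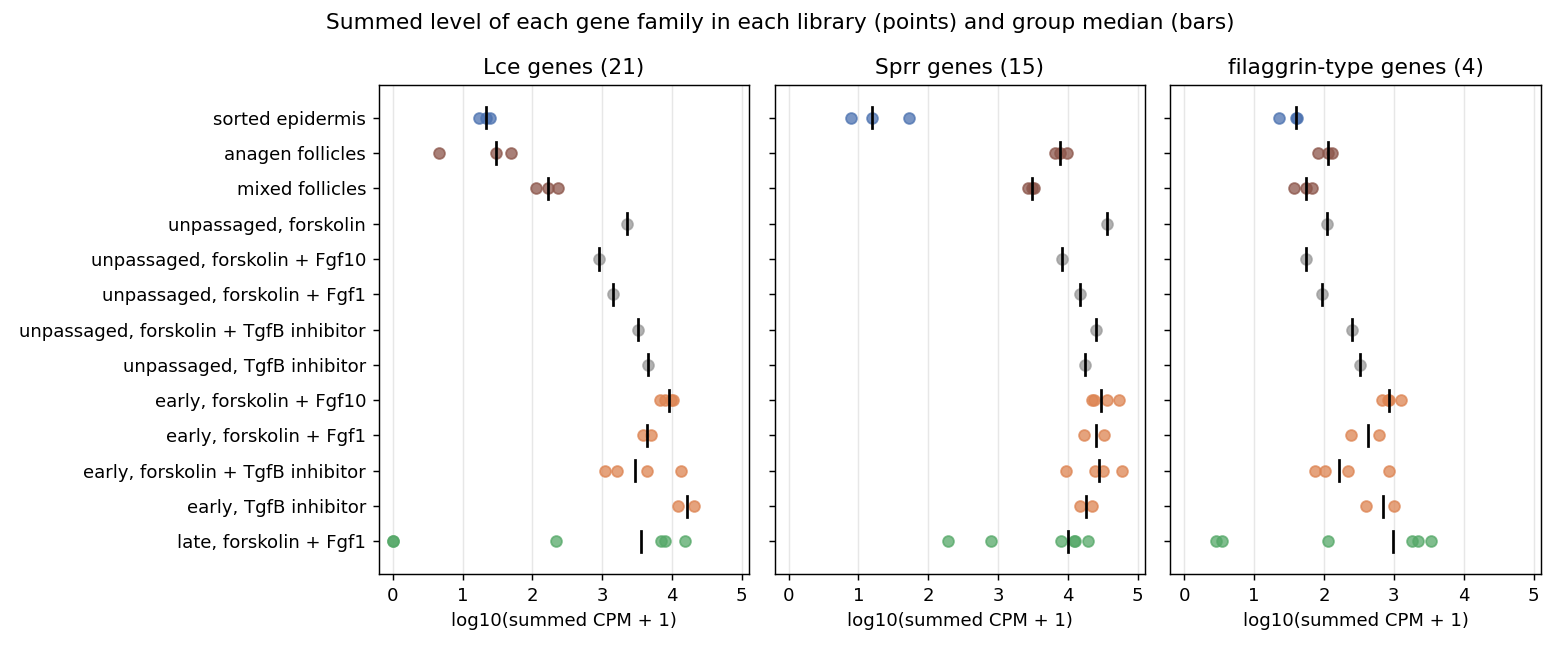
Summed CPM of the Lce, Sprr and filaggrin-type genes on a log10(CPM + 1) axis for every library (points) of the 13 groups, with the group median as a bar. Anagen follicles are low for Lce (3.59 to 48.6 CPM) and high for Sprr (6628 to 9850.1 CPM), and the 6 late organoid libraries spread from 0 to 15129 CPM for Lce.

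As a share of all counts, the 43 genes took 0.0116% to 0.0189% of each epidermis library, 0.788% to 1.13% of anagen and 0.327% to 0.386% of mixed follicle libraries, and 1.11% to 6.78% of the early organoid libraries. Within the members' total, Sprr genes made up 86.6% ± 2.15 in anagen and 82.2% ± 1.37 in mixed follicles (SD, n = 3 each), and in both most of it was Sprr1a. Lce genes made up 0.307% ± 0.290 in anagen follicles and 4.76% ± 1.67 in mixed follicles. In early organoids with the inhibitor alone, the Lce share was 41.0% and 30.1% of the members' total in the 2 libraries. Filaggrin-type genes held 20.2% ± 1.42 of the small total in epidermis (n = 3), and at most 2.90% in any early library. In bulk samples, fewer cells of a type and less RNA per cell cannot be told apart.

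**Figure D2:**
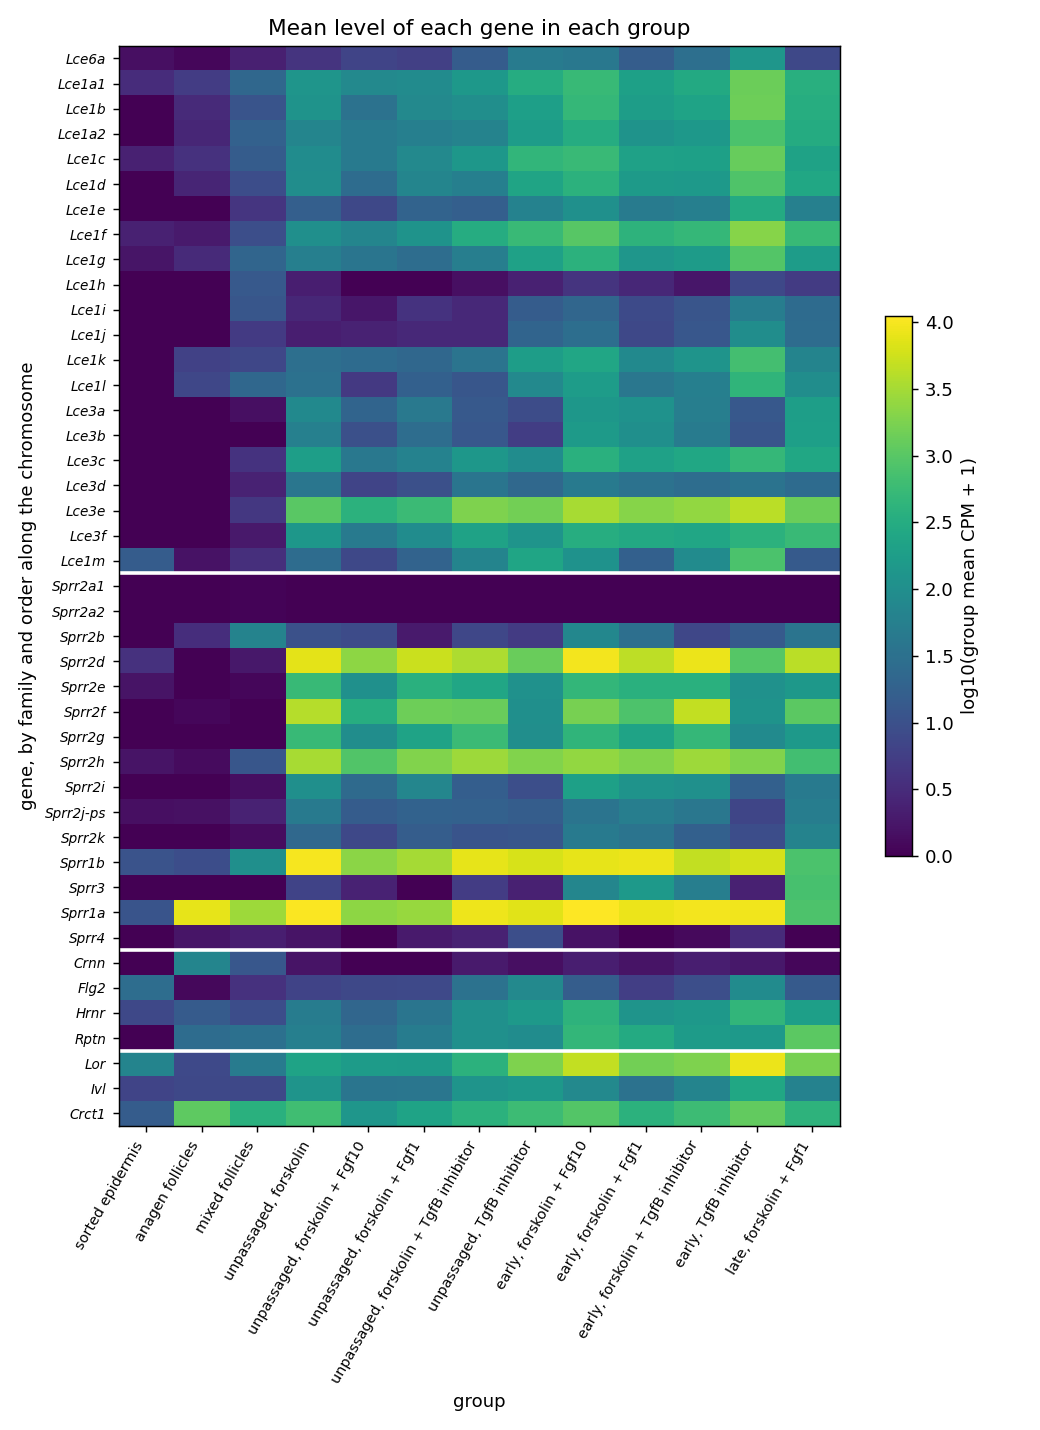
Mean CPM of each of the 43 genes (rows, by family and order along the chromosome) in each of the 13 groups (columns), coloured by log10(mean CPM + 1). The Lce3 rows are at 0 in sorted epidermis and anagen follicles, Sprr1a and Crct1 stand out in the follicle columns, and Sprr2a1 and Sprr2a2 are near 0 throughout.

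The Lce genes fall into 14 Lce1 genes, 6 Lce3 genes and Lce6a. Many share 3' sequence. Of windows of 50 bases within the last 400 bases, 47.9% of Lce3d, 43.9% of Lce3c and 36.5% of Lce1b occurred in another gene. For Lce1m and Lce6a the share was 0%. Reads of the sharing genes may not be separable, so numbers of Lce genes need not be numbers of independent readouts. No count of any Lce3 gene was seen in epidermis or anagen follicles, which allows up to 1.71 CPM and 0.543 CPM per gene (3 counts over the summed totals, counting error only). In mixed follicles the Lce3 sum was 10.7, 5.97 and 10.8 CPM. Lce1 genes, by contrast, summed to 19.5 ± 4.33 CPM in epidermis (n = 3), and most of that was a single gene, Lce1m, with 17.0, 13.5 and 11.1 CPM. Lce1m had 1.32 CPM or less in every anagen library, so that the ranges did not overlap. Of all genes tested, 30.3% were higher in epidermis than in anagen follicles in that way. In the early organoids with the inhibitor alone Lce1m reached 1235 and 338 CPM, and in early forskolin and Fgf1 organoids 16.0 and 16.8 CPM, near the epidermis level.

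Among the Sprr genes, Sprr1a and Sprr1b parted in the follicles. Sprr1a (chromosome 3, 92483952 to 92485895), an envelope precursor, had 6614, 9841 and 7661 CPM in the anagen libraries and 2818, 2490.3 and 3091 in the mixed ones. Sprr1b (92436809 to 92438789), its close relative, had 9.23, 3.95 and 11.3 CPM in anagen and 120.3, 90.7 and 98.2 in mixed follicles. Neither pair of ranges overlapped. The ratio of Sprr1a to Sprr1b counts was 679 to 2494 in anagen and 23.4 to 31.5 in mixed follicles, and 0.756 to 2.93 over the early organoid libraries. Over the late libraries it ran from 0.152 (replicate 2) to 6.95 (replicate 3). Between the follicle groups, the log2 difference (anagen minus mixed) was 0.92 ± 1.09 SE for Sprr1a and -4.11 ± 1.32 SE for Sprr1b. Neither passed the test (edgeR adjusted p = 0.687 and 0.0745), and the difference between both genes was not tested. Sprr1b passed with DESeq2 (adjusted p = 0.00705), with edgeR without the filter on low counts (0.000959) and in the fit of both groups alone (0.000951). No window of 50 bases within the last 400 bases of either transcript was shared with another gene, so reads of the pair are separable at that length.

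**Figure D3:**
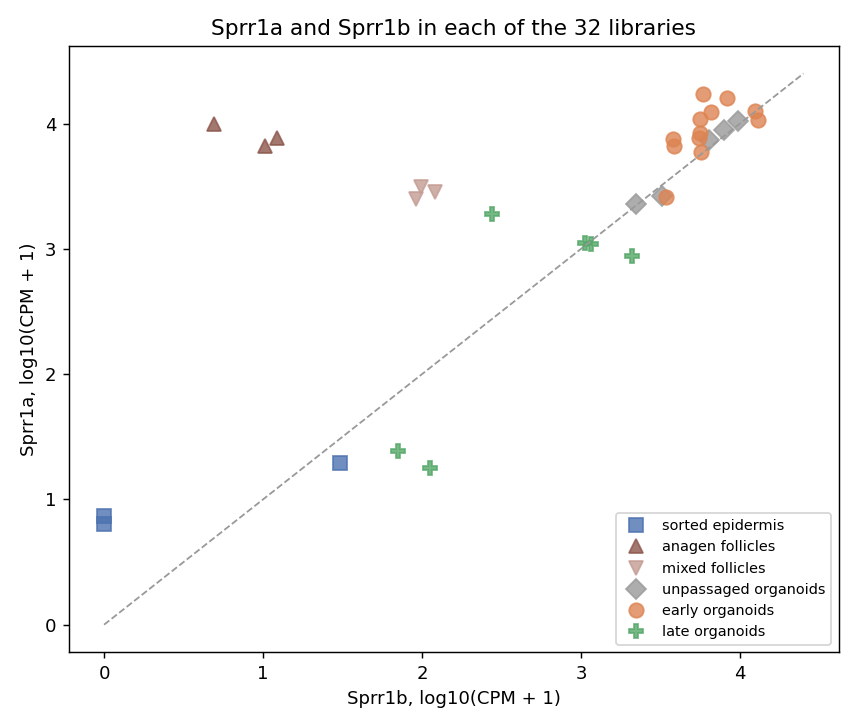
Sprr1a against Sprr1b in each of the 32 libraries, both as log10(CPM + 1), with the line of equal values dashed. Organoid libraries of the early and unpassaged groups lie near the line, while the 3 anagen libraries sit at 6614 to 9841 CPM of Sprr1a with at most 11.3 CPM of Sprr1b. Late libraries lie on both sides of the line, with ratios of Sprr1a to Sprr1b from 0.152 to 6.95.

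The remaining Sprr genes were close to absent from sorted epidermis and anagen follicles. The 11 Sprr2 genes together had 1.35 to 8.51 CPM in epidermis and 1.03 to 5.26 in anagen follicles. Mixed follicles had 129, 68.9 and 39.0 CPM, most of it Sprr2b with 107, 54.9 and 31.0 CPM. Sprr2d had at most 1.44 CPM in any follicle library and 4554 to 18969.6 CPM in the 4 early libraries with forskolin and Fgf10. Sprr3, an oesophageal and oral envelope gene, had no count in any of the 9 tissue libraries. Sprr2a1 and Sprr2a2 share all of their 3' sequence with each other, had 1 count each in 1 library, and are uncertain.

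Crnn (cornulin), a filaggrin-type gene best known from the oesophagus, was counted mainly in follicles. It had 76.3, 55.9 and 71.3 CPM in anagen follicles, 15.8, 10.4 and 7.94 in mixed follicles, and no count in epidermis. No organoid library exceeded 2.15 CPM. Flg2, a filaggrin relative of the keratohyalin granule, ran the other way, with 38.3, 13.5 and 29.6 CPM in epidermis and 0, 0.658 and 0 in anagen follicles. Rptn (repetin) had no count in epidermis and 14.5 to 32.6 CPM in anagen follicles.

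The comparison of sorted epidermis with anagen follicles sets interfollicular cells against growing follicles. Of the 43 members 40 were tested, by the quasi-likelihood test of edgeR (p adjusted by Benjamini-Hochberg over 10843 genes, threshold 0.05). In epidermis 1 member was higher, where 14.8% of all tested genes were, and 3 were lower, where 19.4% were. Of the 40, 14 had no count in either group and could not be called. In the fit of both groups alone, which tested 9 members, 3 were higher (21% of all genes were) and 4 were lower (23.1%). Upper quartile scaling turned the split over all genes from 1609 higher and 2102 lower to 1991 higher and 1688 lower, and moved the median difference of all genes from -0.15 to 0.09. The lower genes were Sprr1a (log2 difference -10.24 ± 1.64 SE, adjusted p = 0.000162), Crnn (at least 39.6-fold lower, adjusted p = 6.46e-06) and Crct1 (-6.82 ± 1.63 SE, adjusted p = 0.00367). Crct1, a small cysteine-rich protein gene of the same cluster, had 1057, 1314 and 893 CPM in anagen follicles and 23.4, 12.2 and 7.40 in epidermis. Flg2 was the higher gene (6.18 ± 1.69 SE, adjusted p = 0.00871), on 44 counts against 1.

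Loricrin had 80.9, 54.1 and 64.7 CPM in epidermis and 7.29, 10.5 and 3.08 in anagen follicles. Its ranges did not overlap, but the difference of 2.82 ± 1.73 SE did not pass (adjusted p = 0.222). Higher, non-overlapping ranges in epidermis were found for 3 of 40 members, where 30.3% of all genes had them. Lower ones were found for 9 members, against 18.1%. Lce1m (4.01 ± 1.61 SE, adjusted p = 0.0617) and Rptn (adjusted p = 0.0789) also missed the threshold. All 3 passed without the filter on low counts (adjusted p = 0.0444 for Lor, 0.00535 for Lce1m and 0.00182 for Rptn) and in the fit of both groups alone (0.000225, 0.000950 and 0.00131). DESeq2 called Lce1m (adjusted p = 0.0380) and Rptn (0.00709), and upper quartile scaling called Lce1m (0.0479). Of the transglutaminases and related crosslinking enzymes, 1 of 4 tested was lower in epidermis, namely Tgm1 (-10.45 ± 1.81 SE, adjusted p = 0.000446). Among 15 other envelope and keratohyalin genes 4 were lower and 0 higher, including the corneodesmosin gene Cdsn (-6.60 ± 1.49 SE) and the inner root sheath gene Tchh (-16.77 ± 1.51 SE).

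Against mixed follicles, 6 members were lower in epidermis (18.5% of all genes were) and 0 were higher. Here upper quartile scaling turned 1286 higher and 2003 lower genes into 1815 and 1634, with the median of all genes at 0.19 in place of -0.08, and left the members at 6 lower. Sprr1a (-9.32 ± 1.59 SE, adjusted p = 0.000343), Crct1 (-5.89 ± 1.57 SE, adjusted p = 0.00893) and Sprr1b (-4.56 ± 1.40 SE, adjusted p = 0.0197) were among them. Of the 40 members, 25 had lower, non-overlapping ranges in epidermis (17 Lce and 5 Sprr genes among them), where 12.9% of all genes did. The other called genes had no count in epidermis. Sprr2b was at least 37.5-fold lower, Lce1h at least 7.35-fold lower and Crnn at least 6.64-fold lower. Without epidermis replicate 1 or 2, Sprr1b no longer passed (adjusted p = 0.0729 and 0.0758), and without replicate 2 neither did Lce1h (adjusted p = 0.0569).

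Between the 2 follicle groups, 1 member was higher in anagen (1.21% of all genes were) and 2 were lower (5.42%). Ranges that did not overlap and were lower in anagen were found for 20 of 40 members (13 Lce and 5 Sprr genes among them), where 7.3% of all genes had them, and higher ones for 3 members, against 20.8%. Crnn was the higher one (2.13 ± 0.47 SE, adjusted p = 0.0100). Sprr2b (-5.38 ± 1.18 SE, adjusted p = 0.00973) and Lce1h (at least 23.2-fold lower, adjusted p = 0.0186) were the lower ones. Lce1h had 83 counts over the mixed libraries and none in anagen. Of 4 genes listed as wound keratins, 3 were lower in anagen than in mixed follicles, Krt6a (-5.37 ± 1.30 SE), Krt16 (-6.64 ± 1.89 SE) and Krt17 (-2.86 ± 0.54 SE). Krt17 is also among the upper follicle markers used here. Basal keratinocyte markers also differed, at 345 to 2350 CPM in anagen and 7386 to 13831 in mixed follicles, and their part in the result was not tested. Without anagen replicate 1 or mixed replicate 2, 1 member passed the threshold.

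Late organoids were compared with sorted epidermis, whose sort takes basal cells, so long culture and the sort cannot be told apart. Of 40 members tested, 33 were higher in late organoids, against 12.2% of all genes, and 0 were lower. They were 16 of 21 Lce genes, all 12 Sprr genes tested, Hrnr and Rptn of 4 filaggrin-type genes, and Lor, Ivl and Crct1. Counts of all members together were only 89, 86 and 102 in the epidermis libraries. Members with no count there, such as the Lce3 genes, Rptn and Sprr3, could not be called lower. Such members were tested because of their counts in other groups, so the split of 33 and 0 was in part set by the filter. The 8 members whose late and epidermis ranges did not overlap (7.23% of all genes were higher in that way) were Ivl and 7 Sprr genes, Sprr1b, Sprr2b, Sprr2d, Sprr2f, Sprr2g, Sprr2h and Sprr2j-ps. No Lce gene was among them. Lor had 8.99, 7.27, 17.6, 6242, 918 and 2794 CPM in late replicates 1 to 6 against 54.1 to 80.9 CPM in epidermis. It lay below epidermis in 3 late libraries and above it in 3, and its difference of 4.93 ± 1.74 SE passed narrowly (adjusted p = 0.0499). The call was lost under RLE (adjusted p = 0.0502) and upper quartile scaling (0.0527), without any 1 epidermis library (0.140 to 0.158), and without late replicate 4, 5 or 6 (0.0748, 0.0605 and 0.0689). Hrnr had 1.80, 0, 2.56, 612, 116 and 403 CPM against 2.13 to 9.25 CPM, with a difference of 5.09 ± 1.66 SE (adjusted p = 0.0357). That call was lost without any 1 epidermis library (adjusted p = 0.100 to 0.127) and without late replicate 4 or 6 (0.0519 and 0.0554).

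The 6 late libraries did not behave alike. The Lce sum was 0 in late replicates 1 and 2, 215 CPM in replicate 3, and 15129, 7016 and 8015 CPM in replicates 4, 5 and 6. The Sprr sum never reached 0, with 793, 191, 12183, 7937, 19312 and 12835 CPM in the same order. Replicate 3 thus had high Sprr levels with few Lce counts. Summed suprabasal markers (Krt1, Krt10, Krtdap and Sbsn) took a similar course to the Lce sum, at 73.7, 114, 716, 15537, 2997 and 10659 CPM, against 2880 to 3028 CPM in epidermis. The part of these markers in the result was not tested. Replicates 1 and 2 share a source table, as do 4 and 5.

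**Figure D4:**
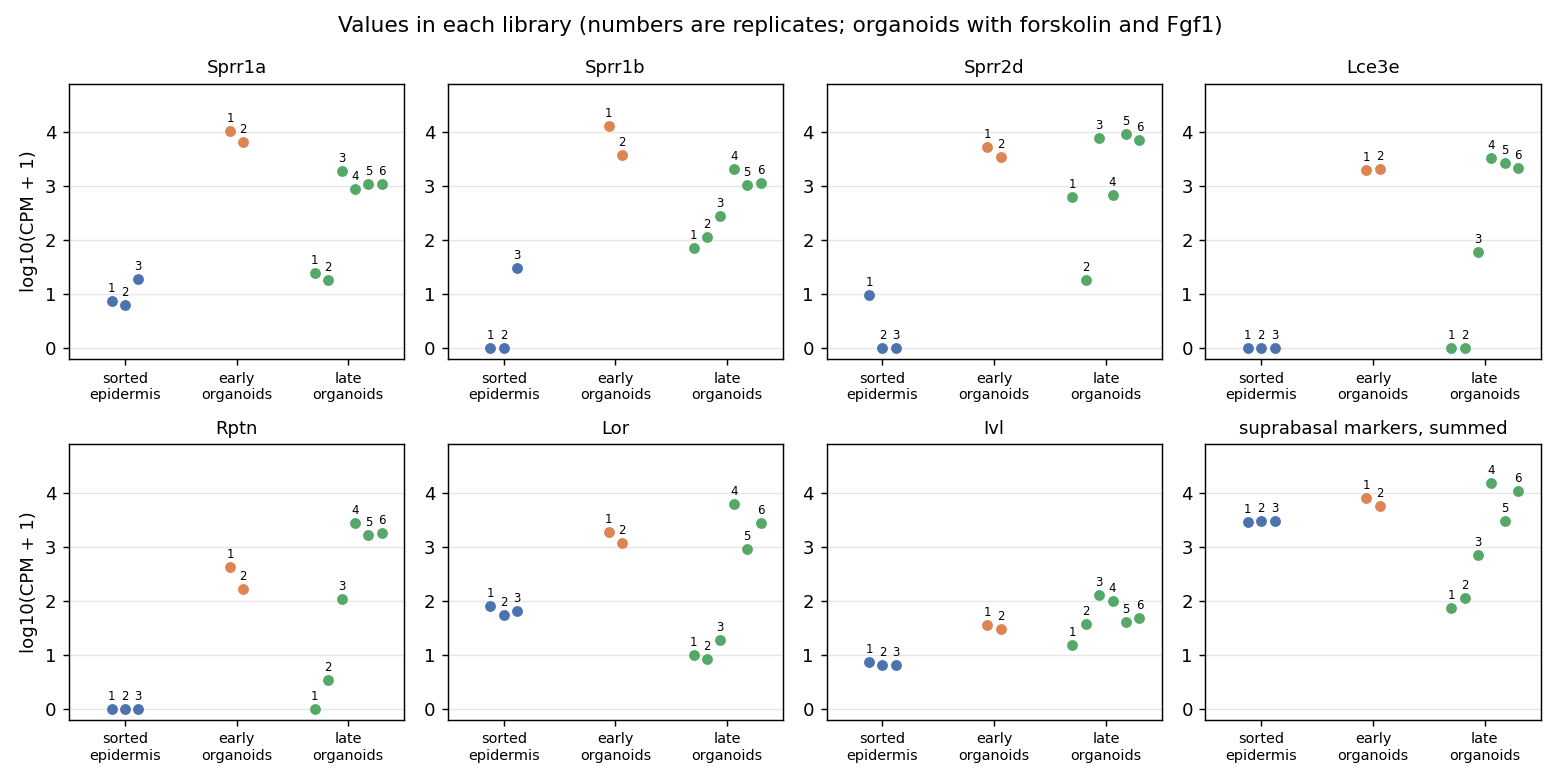
Values of 7 member genes and of the summed suprabasal markers, as log10(CPM + 1), in each epidermis library and each forskolin and Fgf1 organoid library, numbered by replicate. Lce3e, Rptn and Lor are near the floor in late replicates 1 and 2 (Lce3e 0, Lor at most 8.99 CPM), while Sprr1b stays at 70.1 CPM or more in all 6.

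Sprr2d had 636, 17.0, 7976, 689.7, 9295 and 7162 CPM in late replicates 1 to 6 and 8.51, 0 and 0 CPM in epidermis. All 6 late values lay above all 3 epidermis values, and the log2 difference was 11.02 ± 2.08 SE (adjusted p = 0.00154). Sprr1b had 70.1, 111, 275, 2100.3, 1057 and 1163 CPM against 0, 0 and 29.6 (6.63 ± 1.46 SE, adjusted p = 0.00361). Sprr1a had 23.4, 17.0, 1914, 869, 1111 and 1095 CPM against 6.39, 5.41 and 18.5, so that late replicate 2 lay within the epidermis range. Its difference was 6.63 ± 1.40 SE (adjusted p = 0.00265). Ivl, the early envelope scaffold, had 14.4 to 130.5 CPM against 5.41 to 6.39 (3.63 ± 0.81 SE, adjusted p = 0.00388).

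Lce3e had 0, 0, 59.5, 3348, 2658 and 2197 CPM in late organoids and no count in epidermis, which makes it at least 803-fold higher over the group (adjusted p = 0.0140). Rptn had 0, 2.42, 109, 2789, 1680.4 and 1807 CPM, at least 621-fold higher (adjusted p = 0.00692). Both bounds rest on late replicates 4 to 6, and in replicates 1 and 2 neither gene exceeded 2.42 CPM. Sprr2f had 23.4, 12.1, 832, 37.7, 4851 and 560.0 CPM and no count in epidermis, at least 614-fold higher. Late replicate 5 carried most of that, and without it the bound was 171-fold. Among the 7 tested members that did not pass were Flg2 (-0.75 ± 0.96 SE, adjusted p = 0.621), Lce1m (0.17 ± 1.08 SE, adjusted p = 0.945) and Crnn (adjusted p = 0.644).

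The number of members called depended on the epidermis libraries. It was 14, 11 and 17 without epidermis replicate 1, 2 or 3, and 13 of 33 tested when the 2 groups were fitted alone. Outside the members, 7 of 15 other envelope and keratohyalin genes were higher in late organoids and 0 lower, with cornifelin (Cnfn, 7.68 ± 1.83 SE) and the filaggrin-processing protease Asprv1 (6.20 ± 1.77 SE) among them. Of 4 crosslinking enzymes 1 was called, Tgm1 (8.38 ± 1.94 SE). All 4 wound keratins were higher, including Krt6a (6.31 ± 1.33 SE) and Krt6b (6.67 ± 1.98 SE).

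Late against early organoids, both with forskolin and Fgf1, share the medium. They differ in time in culture and in number of passages, which cannot be told apart. Of 39 members tested 2 were lower in late organoids, against 3.72% of all genes, and 0 were higher. They were Sprr1a (-3.40 ± 0.98 SE, adjusted p = 0.0450) and Sprr1b (-3.41 ± 0.81 SE, adjusted p = 0.0185). Early values were 10625 and 6598 CPM for Sprr1a and 13032 and 3853 CPM for Sprr1b, while late values reached at most 1914 CPM for Sprr1a and 2100.3 CPM for Sprr1b, so that neither pair of ranges overlapped. A further Sprr gene, Sprr2h, had early values of 1986 and 1830.2 CPM against 12.1 to 1590.4 CPM late, without passing (-1.48 ± 1.02 SE, adjusted p = 0.382). These 3 were the members with lower, non-overlapping ranges, where 8.33% of all genes had them. Leaving out either early library left 0 members called, and leaving out late replicate 5 left 1.

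Sprr2d (-0.05 ± 1.24 SE), Lor (0.13 ± 1.65 SE), Lce3e (-0.55 ± 1.51 SE), Rptn (1.86 ± 1.61 SE) and Sprr3 (2.21 ± 1.86 SE) did not pass, with adjusted p from 0.486 to 0.988. Their standard errors exceed 1 log2 unit, so sizeable differences either way were not detectable. Outside the members, the wound keratin Krt16 (-4.04 ± 1.05 SE, adjusted p = 0.0281) and the AP-1 subunit gene Jund (-1.17 ± 0.30 SE, adjusted p = 0.0264) were lower.

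Early organoids were compared with unpassaged ones over the 4 media present at both stages, with medium as a term. The stages differ in passaging and in time in culture, which cannot be told apart here. Of 40 members tested, 15 were higher in early organoids and 0 lower, against 5.1% of all genes that were higher. They were 11 of 21 Lce genes, Sprr2b, Sprr3, Rptn and Lor. With the media pooled, 0 of 40 members had higher, non-overlapping ranges, as 0.411% of all genes did. Summed suprabasal markers were 3760 CPM unpassaged and 12917 to 19267 CPM early with forskolin and Fgf10. In the Fgf1 medium they were 2912 CPM, then 8094 and 5702. With forskolin and inhibitor they were 6584 CPM, then 2477, 5484, 2988 and 23225, and with the inhibitor alone 12115 CPM, then 24745 and 16835. Their part in the result was not tested. Median log2 differences were 2.05 for Lce, 0.93 for Sprr and 1.79 for filaggrin-type genes, and 0.01 over all genes tested. Sprr3 had 0 to 4.33 CPM in the 4 unpassaged libraries and 0.829 to 229 CPM in the 12 early ones, and rose by 4.68 ± 1.12 SE (adjusted p = 0.0138). Lor had 164 CPM unpassaged with forskolin and Fgf10 and 3261, 3639.8, 7692 and 4646 CPM early. With forskolin and Fgf1 it had 161 CPM, then 1877 and 1161. With forskolin and inhibitor it had 393 CPM, then 341, 403, 387 and 6119, so that 3 of 4 early libraries lay near the unpassaged value. With the inhibitor alone it had 1809 CPM, then 11912 and 4979. Over the 4 media Lor rose by 3.08 ± 0.77 SE (adjusted p = 0.0171).

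Within Lce, Lce1l (2.80 ± 0.84 SE), Lce1j (2.79 ± 0.85 SE) and Lce3b (2.52 ± 0.59 SE) had the largest increases among the called genes, and Lce3e rose by 1.66 ± 0.52 SE (adjusted p = 0.0451). Sprr1a (1.11 ± 0.45 SE, adjusted p = 0.114), Sprr1b (0.51 ± 0.39 SE, adjusted p = 0.406) and Ivl (0.23 ± 0.37 SE, adjusted p = 0.718) did not pass. Of 3 crosslinking enzymes tested (median log2 difference -0.27), 1 was called. Tgm3, the transglutaminase that crosslinks loricrin and small proline-rich proteins, rose by 2.22 ± 0.32 SE (adjusted p = 0.000536).

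Most early libraries came from another source table than the unpassaged ones. With source table as a term, 0 of the 40 members passed, and Lor was 3.11 with adjusted p = 0.332 and Sprr3 5.33 with adjusted p = 0.141. Inside the table that holds both stages, 1 early library stands beside 1 unpassaged library in each of 2 media. The early one had the higher value for 40 of 40 tested members in forskolin and Fgf10, where 45.8% of all genes tested were higher, and for 35 of 40 in forskolin and Fgf1, where 51.4% were. These libraries are also part of the fit, so the counts describe it and are no further test. Leaving out the unpassaged forskolin and Fgf10 library left 0 members called, and leaving out the unpassaged library with forskolin and Fgf1, with forskolin and inhibitor or with inhibitor alone left 6, 8 and 4. Without early forskolin and inhibitor replicate 1 there were 23, and without early inhibitor replicate 1 there were 5.

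**Figure D5:**
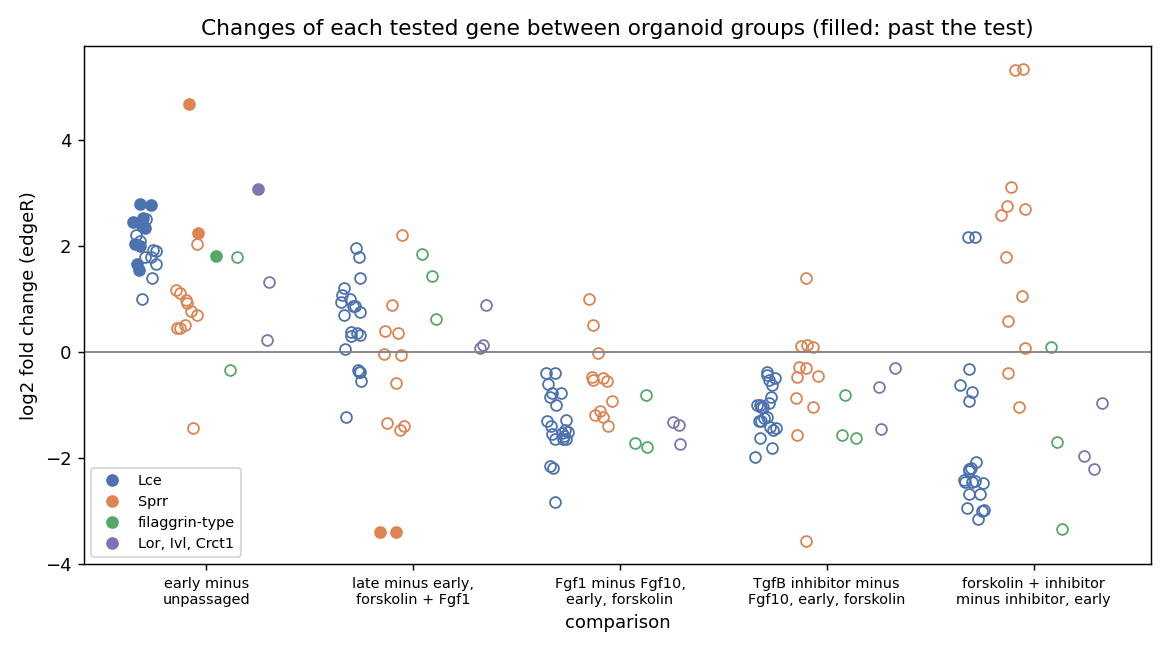
Log2 fold change from edgeR of each tested member (points, coloured by family, filled where past the threshold) in the 5 comparisons between organoid groups. In the forskolin comparison most Sprr points lie above 0 (median 2.19) and most Lce points below (median -2.43), with no filled point.

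The early media were compared next. Forskolin with the inhibitor against the inhibitor alone, the contrast for forskolin, gave 0 members past the threshold among 39 by edgeR and 0 by DESeq2, where edgeR called 0% of all genes in either direction. At an unadjusted p under 0.05 there were 6 members and 623 genes, and DESeq2 called 38 genes. The families lay on opposite sides of 0. Of 12 Sprr genes 10 were fitted higher with forskolin (median 2.19), and of 21 Lce genes 19 were fitted lower (median -2.43), against a median of 0.02 over all genes. The difference between families was not tested.

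Sprr2f had 357, 11872, 5921 and 845 CPM with forskolin and inhibitor and 136 and 102 CPM with the inhibitor alone (5.34 ± 2.30 SE, adjusted p = 0.765). Sprr2d had 1474, 17450.2, 10724 and 3952 CPM against 938 and 1001 (3.13 ± 1.57 SE, adjusted p = 0.803). Neither pair of ranges overlapped, and the size varied with the library. In all, 5 Sprr genes had higher, non-overlapping ranges with forskolin (11.6% of all genes did). Lower, non-overlapping ranges were found for 10 Lce1 genes, Flg2 and Ivl, 12 members of 39, where 9.15% of all genes had them. Summed suprabasal markers were 2477, 5484, 2988 and 23225 CPM with forskolin and inhibitor and 24745 and 16835 CPM with the inhibitor alone. Replicate 4 stood apart in these markers, as it did in Lor and Flg2, and their part in the result was not tested. Flg2 had 1.36, 3.22, 2.57 and 26.5 CPM against 124 and 53.9 (-3.35 ± 1.09 SE, adjusted p = 0.528). Ivl had 32.7, 49.9, 36.8 and 146 CPM against 305 and 212 (-1.96 ± 0.62 SE, adjusted p = 0.489).

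The single unpassaged libraries of the same media give the same quantities side by side, with no test. Sprr2d had 3556 CPM with forskolin and inhibitor and 1324 with the inhibitor alone, and Sprr2f 1342 and 105 CPM. Lor had 393 and 1809 CPM, Flg2 32.7 and 78.6 CPM, and the Lce1 sum 1001 and 2741 CPM. The Sprr2 sum was 8568 and 3570.3 CPM, while Sprr2k went the other way, with 10.1 and 11.2 CPM. The Lce3 sum was 2287 and 1765 CPM, opposite to the Lce1 sum. With forskolin, Sprr2d, Sprr2f and the Lce3 sum were thus higher and the Lce1 sum, Lor and Flg2 lower in this pair of libraries.

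Fgf1 against Fgf10, both with forskolin in early organoids, gave 0 of 39 members past the threshold by edgeR and 0 by DESeq2, where edgeR called 0% of all genes. No member and 328 genes had an unadjusted p under 0.05, and DESeq2 called 13 genes. All 21 Lce genes were fitted lower with Fgf1 (median -1.47), and 37 of 39 members were (median -1.29, against -0.00 over all genes). The ranges of 21 members did not overlap and were lower with Fgf1, where 6.57% of all genes were. They were 16 Lce genes, Hrnr, Flg2, Lor, Crct1 and Ivl, and 0 Sprr genes. Lor had 1877 and 1161 CPM with Fgf1 and 3261, 3639.8, 7692 and 4646 with Fgf10 (-1.74 ± 1.90 SE). Lce1m had 16.0 and 16.8 CPM against 106, 34.9, 173 and 137 (-2.83 ± 1.46 SE). Sprr1b was near equal, with 13032 and 3853 CPM against 12361, 8309, 5532 and 5616 (-0.01 ± 0.94 SE). Summed suprabasal markers were 8094 and 5702 CPM with Fgf1 and 12917 to 19267 with Fgf10, and their part in the result was not tested.

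The inhibitor against Fgf10, both with forskolin, gave 0 of 39 members past the threshold by edgeR, where 0.262% of all genes were higher and 0.313% lower. Of the members, 1 had an unadjusted p under 0.05, Sprr2b, as did 718 genes. Sprr2b had 2.72, 5.37, 8.56 and 8.01 CPM with the inhibitor and 31.1, 98.7, 138 and 22.1 with Fgf10, ranges that did not overlap (-3.57 ± 0.92 SE, adjusted p = 0.0964). DESeq2 called it (-3.63, adjusted p = 0.0161), and so did edgeR without the filter on low counts (adjusted p = 0.00589), with source table as a term (adjusted p = 0.00444) and in the fit of both groups alone (adjusted p = 0.0108). Rptn had 46.3, 146, 71.4 and 389.6 CPM against 547, 518, 484 and 397, again without overlap (-1.63 ± 1.27 SE, adjusted p = 0.922). These 2 were the members of 39 with lower, non-overlapping ranges, where 2.73% of all genes had them.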

How the data were processed

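Libraries of sorted skin cells and organoids were sequenced by CEL-seq2, per the labels' protocols, and the submitters' processing notes name BWA 0.6.2-r126 and the build mm10. The authors deposited raw counts per gene name, without normalization. Not given in the sources used here are the counting tool, its annotation and whether molecular identifiers were collapsed. Spike-in names were left out, CPM is a count per 1000000 of the remaining total, and a gene missing from a file was set to 0. Members and lists were chosen with earlier results of these data known.

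Fits used edgeR 4.0.16 (R 4.3.3) with TMM scaling, filterByExpr (10 counts, 15 in total) and quasi-likelihood tests adjusted by Benjamini-Hochberg over all genes tested at 0.05. Tissue comparisons shared a fit of 17 libraries, passaged organoids one of 18 and passaging one of 16. Alternatives were DESeq2 1.42.0, other scalings, no filter, a replicate block, source table as a term, fits of 2 groups and leaving out libraries. Leaving out a late source table was chosen after seeing the data. Bounds against groups at 0 use 3 counts over the group's summed total and, like floors, cover counting error only. Genes named are the members past the threshold (at most 8 per comparison), the envelope and Sprr1, Sprr3 and filaggrin-type genes by default, the leading members of each family, and up to 4 called genes of each context list. Lce1m, Sprr2b, Sprr2f, Sprr2h, Sprr2k and Crnn, where outside this rule, were singled out after their values were seen.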

Additional observations from a re-analysis of the deposited data

Results flagged for a closer look

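In groups of 4 to 10 libraries, the highest or lowest value of a member was checked for a gap to its neighbour that is wide against the group's range. Of 48 groups of values over 16 genes and sums, 8 showed such a gap. The cutoff would flag about 1 in 20 among independent, normally distributed values. The values here come from related genes in the same libraries, so the 8 cannot be set against that rate. Early forskolin and inhibitor replicate 4 accounted for 6 of the 8. There Lor was 6119 CPM (next highest 403), Hrnr 443 (69.2), Ivl 146 (49.9), Flg2 26.5 (3.22), Lce1f 1607 (127) and Lce1a1 914 (95.0). Summed suprabasal markers were 23225 CPM in that library and 2477, 5484 and 2988 in the other three, and their part in these values was not tested. Hrnr in early forskolin and Fgf10 replicate 3 was 777 CPM (next 303). Sprr3 in late replicate 4 was 3672 CPM, against 620.0 in replicate 6.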

How the results depend on the processing

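RLE and upper quartile scaling kept every count of members called within 1.5 times. Counts of members called moved as follows. Without the filter on low counts they were 8 for epidermis against anagen (4 as reported), 18 against mixed follicles (6), 11 for anagen against mixed (3), 33 for passaging (15) and 1 for the inhibitor (0). DESeq2 gave 16 for epidermis against mixed, 7 for anagen against mixed and 1 for the inhibitor. Fits of 2 groups gave 7, 11 and 10 for the tissue comparisons in the same order, 13 for late against epidermis (33), 0 for late against early (2), 2 for Fgf1 (0) and 1 for the inhibitor. With source table as a term there were 0 for passaging and 1 for the inhibitor. Without the source table of late replicates 4 and 5, late against early gave 1. Leaving out 1 library at a time gave 1 to 3 for anagen against mixed, 4 for epidermis against anagen, 4 to 6 for epidermis against mixed, 11 to 35 for late against epidermis, 0 to 2 for late against early, 0 to 23 for passaging and 0 for the media. The cause of these moves was not tested.

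Correlations of same-numbered deviations ran from -0.15 to 0.26 (median 0.018) for tissue and late libraries and from -0.24 to 0.53 (median -0.018) for passaged organoids. Differently numbered ones ran from -0.27 to 0.25 (median -0.0069) and from -0.44 to 0.41 (median -0.0047). Whether replicate numbers pair some of the libraries cannot be settled by these values. With the replicate block, counts were 9, 24 and 21 for the tissue comparisons, 22 for late against epidermis, 6 for late against early, 1 for the inhibitor, 2 for forskolin and 1 for passaging. The block reversed Lor (-2.46), Hrnr (-1.74) and Lce1m (-4.62) in late against epidermis and Lor (-5.78) in late against early. In the tissue fit only late organoids had replicates 4, 5 and 6, so the block took up these libraries. Its late against epidermis differences then rested on late replicates 1 to 3, where Lor had 8.99, 7.27 and 17.6 CPM against 54.1 to 80.9. In the passaged organoid fit, replicates 5 and 6 were late organoids only and were taken up likewise.

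TMM-scaled totals moved the Lce sum to 15.5 CPM in epidermis and 269 in mixed follicles, and the mixed Sprr and filaggrin-type sums to 5117 and 87.4. Without Lce3e the Lce sum was 2354 CPM with early Fgf1 and 5449.9 with early Fgf10. Without Sprr1a the Sprr sum was 9298 CPM in early inhibitor organoids, 12.2 in anagen and 183 in mixed follicles. Without Rptn the filaggrin-type sum was 129 and 427 CPM with early Fgf1 and Fgf10, and 81.4 and 22.0 in anagen and mixed follicles. Low depth in epidermis limits genes near 0 there.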

Other observations

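Across the 13 group means, the non-member genes whose CPM ranked most like the Lce sum, among 7615 genes compared, were Calm4 and Slc37a2 (Spearman 0.984 each), Klk8 and Sult2b1 (0.973), Casp14 and Mmab (0.962), Wfdc5 (0.951), Asprv1 (0.940), and Cysrt1 and Pfdn2 (0.934). Those most like the Sprr sum were Degs2 (0.971), Rhof (0.935), Tubb2b (0.929), Enah (0.918) and Aldh1a3 (0.901). The values describe group means that share libraries and depth, and no test was made.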
